A study of Mus musculus with 30 samples.

Results

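The genes described here are the nuclear-encoded subunits of the mitochondrial respiratory chain and ATP synthase, the enzymes of oxidative phosphorylation. They were taken by name: symbols beginning with Ndufa, Ndufb, Ndufc, Ndufs or Ndufv, with Uqcr or with Atp5, symbols beginning with Cox4 to Cox8, and Sdha to Sdhd, without assembly factors and without names that carry the pseudogene mark -ps. Of 55401 genes, 90 matched, and the 79 whose mean reached 5 CPM (counts per 1000000 counts assigned to genes) in at least 1 of the 6 groups were kept. They comprise 35 subunits of complex I, 4 of complex II, 8 of complex III, 15 of complex IV and 17 of complex V. Atp5g2, with a highest group mean of 5.47 CPM, was the member just inside that limit, and Ndufs5, at 4.73 CPM, was just outside it. The other 10 names left out were Cox4i2, Cox6b2, Cox6c2, Cox7b2, Cox8b, Cox8c, Ndufa11b, Ndufb4c, Ndufs6b and another identifier named Atp5o. The annotation gives 4 of the 11 left out as processed pseudogenes and all 79 kept genes as protein-coding. Cox7a2l is kept under the naming rule although its product is known as a factor that joins complexes III and IV into supercomplexes.

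Complex I takes electrons from NADH and complex II takes them from succinate. Both pass them through coenzyme Q to complex III, and cytochrome c carries them on to complex IV, which reduces oxygen. Complexes I, III and IV pump protons across the inner mitochondrial membrane, and ATP synthase, called complex V, uses the returning protons to make ATP. Most of their subunits are encoded in the nucleus and a small core is encoded in mitochondrial DNA. T cells that become activated are known to raise both glycolysis and mitochondrial respiration.

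RNA was sequenced from 30 libraries, 5 in each of 6 groups, all taken from 4T1 tumours grown in wild-type mice. 4T1 is a mouse mammary carcinoma line, here marked with green fluorescent protein. C269, an antibody that neutralises extracellular nicotinamide phosphoribosyltransferase, was dosed at 2.5 mg/kg over 1 month with 2 doses per week, and the CTRL animals received a control IgG1. The groups are 4T1 C269 and 4T1 CTRL, which are sorted tumour cells, CD4 C269 and CD4 CTRL, which are CD4+ T cells, and CD8 C269 and CD8 CTRL, which are CD8+ T cells, both isolated with magnetic beads. Because tumour cells were sorted and T cells were isolated with beads, population and isolation method cannot be told apart. The labels do not say which libraries came from separate mice, so p-values measure the spread between libraries, part of which may be technical.

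Counts assigned to genes ran from 2005579 to 5176494 per library. Libraries are named by the numbers that head their columns. All 8 T cell markers had counts in each CD4 and CD8 library, and their summed level was 3222 to 4261 CPM in CD8 CTRL and 889 to 1955 CPM in CD4 CTRL. It was 8.03 to 142 CPM in 4T1 CTRL. The 8 epithelial and tumour markers summed to 228 to 577 CPM in 4T1 CTRL, where 6 to 8 of them had counts, a range that overlapped the 214 to 341 CPM of CD4 CTRL. The 4T1 CTRL libraries also held 3849 to 13597 CPM of neutrophil, 3187 to 53935 CPM of fibroblast and 182 to 26840.2 CPM of erythroid marker RNA. Their macrophage markers summed to 1357 to 6510 CPM. Libraries 9 and 10 of 4T1 C269 stood apart from all others. All 8 intestinal epithelium markers had counts there and summed to 11189.6 and 10934 CPM, against at most 45.6 CPM in every other library. They also held 208 and 210.4 CPM of 4 Y-linked genes, against at most 1.39 CPM elsewhere. The main values of 4T1 C269 are therefore also given without those libraries.

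The members were expressed in all 3 populations over a wide range of levels. Averaged over the 6 group means, 10 members lay under 50 CPM, 17 from 50 to 100, 28 from 100 to 200, 17 from 200 to 400 and 7 over 400 CPM. The highest were Atp5g3, which encodes subunit c of the rotor ring, at 644 CPM, Atp5b and Atp5a1, which encode the catalytic and the partner subunit of the ATP synthase head, at 565 and 496 CPM, and Uqcrh, the hinge protein of complex III, at 494 CPM. The lowest were Atp5g2 at 4.13, Cox7a1 at 4.25, Ndufa4l2 at 5.35 and Atp5l at 14.3 CPM. Scaled by exon length, the order changed. Cox8a led with 571 CPM per kb, followed by Cox6a1 with 507, Ndufa2 with 502 and Atp5k with 437 CPM per kb, and Atp5l was lowest with 2.21 CPM per kb. The annotation gives 9 other genes at least 95% identical over 200 bases or more to Atp5l, and 25 of the 79 members have at least 1 such gene, so reads may have been split between them and their levels are uncertain.

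Nuclear respiratory genes are known to share binding sites of NRF1 and of the ETS-family factor GABPA (NRF2). The promoters of Uqcrh and Cox7a2l are shown because both genes were called in comparisons of populations, and that of Cox6a1 because it was among the highest genes in libraries 9 and 10 of 4T1 C269. Sequences are from RefSeq (GRCm38.p6) and run from 250 bases before to 50 bases after a RefSeq start of the gene. For Cox7a2l the stretch lies inside the gene as annotated in GENCODE M21 (chr17:83501918-83517330, minus strand). The annotated start of Cox7a2l at 83517330 is therefore not in the stretch shown. Capitals mark GCGCATGCG, an NRF1 motif, whose matches on the 2 strands overlap where the run is 1 base longer, and CCGGAAG, an ETS motif, which appears as CTTCCGG where it lies on the other strand.
Uqcrh (chr4:116075021-116075320, minus strand): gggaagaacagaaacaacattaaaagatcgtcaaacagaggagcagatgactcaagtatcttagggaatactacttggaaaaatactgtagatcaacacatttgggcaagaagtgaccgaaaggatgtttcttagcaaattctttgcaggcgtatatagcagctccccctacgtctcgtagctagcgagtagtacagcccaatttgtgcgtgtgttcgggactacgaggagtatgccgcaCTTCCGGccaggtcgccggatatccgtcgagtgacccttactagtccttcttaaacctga
Cox7a2l (chr17:83514284-83514583, minus strand): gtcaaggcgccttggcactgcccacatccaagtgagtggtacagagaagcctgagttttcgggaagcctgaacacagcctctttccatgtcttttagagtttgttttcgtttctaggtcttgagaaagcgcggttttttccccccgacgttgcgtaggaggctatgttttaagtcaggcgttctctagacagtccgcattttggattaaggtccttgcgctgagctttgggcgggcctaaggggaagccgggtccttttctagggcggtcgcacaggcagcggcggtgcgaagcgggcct
Cox6a1 (chr5:115348909-115349208, minus strand): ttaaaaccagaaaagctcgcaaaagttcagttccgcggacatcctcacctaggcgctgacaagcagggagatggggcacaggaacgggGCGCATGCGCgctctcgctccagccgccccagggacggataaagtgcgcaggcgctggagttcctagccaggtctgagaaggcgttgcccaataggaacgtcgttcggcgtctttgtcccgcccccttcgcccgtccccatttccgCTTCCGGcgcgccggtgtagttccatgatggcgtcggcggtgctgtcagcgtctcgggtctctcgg
Of the 79 members, 65 had a promoter sequence, and none of the motifs searched was in the stretch used for Cox7a2l. The ETS motif was found on either strand in 17 of them (26.15%), among them Uqcrh, against 9.928% of 27025 genes. The NRF1 motif was found in 8 (12.31%), against 1.95% of genes, and these were Cox6a1, Atp5k, Atp5g2, Atp5l, Ndufa8, Ndufa11, Uqcr11 and Uqcrc1. AAGATGGCG, a YY1 motif, was in 7 (10.77%), against 1.639% of genes. ACGTG, the core of the hypoxia response element, was in 16 (24.62%), against 21.78% of genes. Both strands were searched for each motif, none of the 4 contains another, and a match describes the sequence without showing that a factor binds there.

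Where a subunit has a ubiquitous and a tissue-restricted isoform, the ubiquitous gene had the higher level in the mean of every group. Group means of Cox4i1 were 223 to 406 CPM per kb, against 0.279 to 2.70 for Cox4i2, an isoform known from lung. Cox6a1 was at 398 to 847 and Cox6a2, the heart and muscle isoform, at 11.9 to 39.9 CPM per kb. Cox7a2 was at 315 to 424 and Cox7a1, which is also known from muscle, at 3.07 to 26.7 CPM per kb. Cox8a was at 469.8 to 688 and Cox8b, another muscle isoform, at 0 to 1.63 CPM per kb. Cox6b1 was at 303 to 497 and Cox6b2, the testis isoform, at 0.204 to 3.68 CPM per kb. Ndufa4, a subunit of complex IV despite its name, was at 66.1 to 99.2, and Ndufa4l2, a hypoxia-induced relative, was at 0.328 to 19.6 CPM per kb. The upper end for Ndufa4l2 came from 4T1 CTRL, where library 5 held 94.5 CPM and the other 4 libraries 1.25 to 6.27 CPM. Library 5 also had the highest fibroblast marker sum, 53935 CPM, and the part of those cells in the value was not tested. Of the 3 genes that encode subunit c, Atp5g3 was at 239 to 379.6, Atp5g1 at 3.38 to 10.6 and Atp5g2 at 2.09 to 3.27 CPM per kb, so Atp5g3 was highest in all 6 groups. Libraries 9 and 10 set several of the upper ends. Without them the 4T1 C269 mean was 257 CPM per kb for Cox4i1, 450.2 for Cox6a1, 9.37 for Cox7a1, 3.55 for Atp5g1 and 211 for Atp5g3, against 406, 847, 26.7, 10.6 and 379.6 CPM per kb with them. Cox4i2 was at 4.33 and Cox8b at 0 CPM per kb without them.

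**Figure D1:**
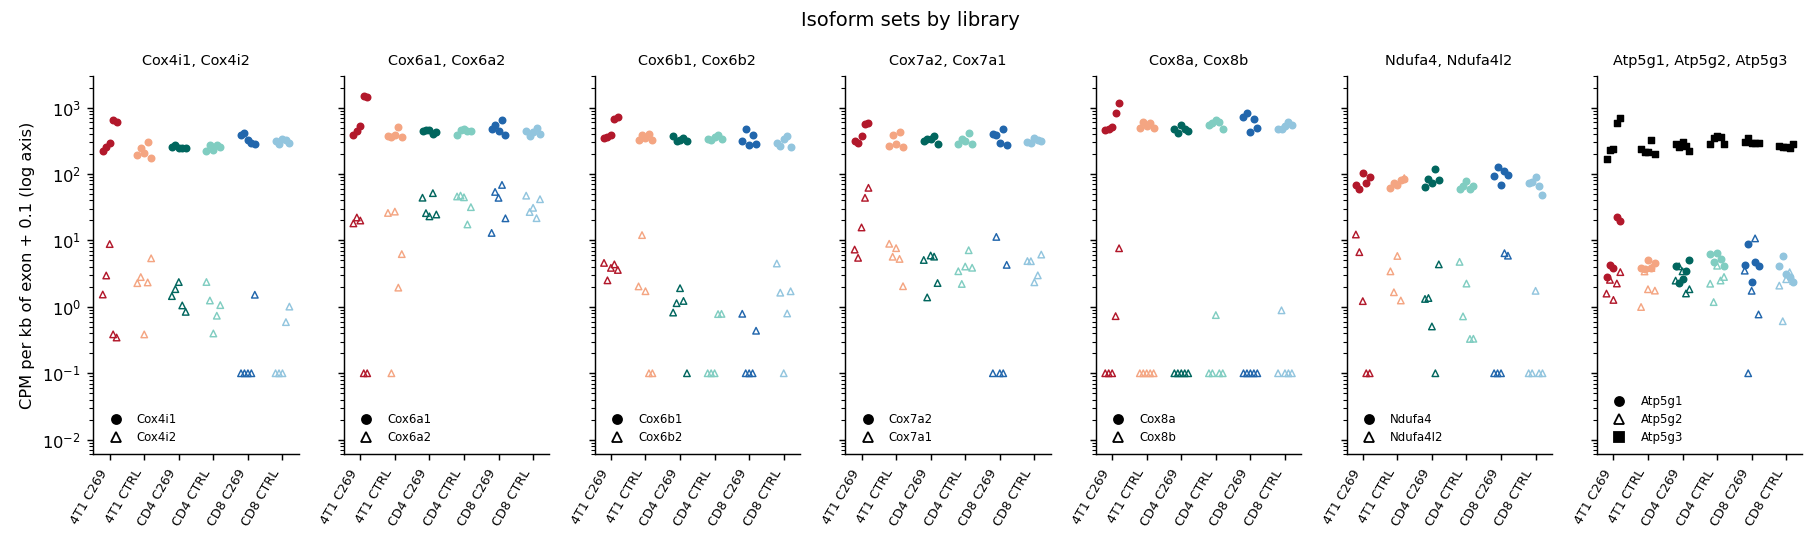
Levels of isoform sets in each library, in CPM per kb of exon plus 0.1 on a log axis, with groups along the horizontal axis. The mean of the ubiquitous isoform lies above those of its tissue-restricted relatives in each group, and Ndufa4l2 is highest in 4T1 CTRL library 5 at 94.5 CPM.

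The summed level of the 79 members was similar in most groups and high in libraries 9 and 10. In 4T1 C269 the 5 libraries held 11192, 12048, 13847, 24810.4 and 25398 CPM, and in 4T1 CTRL they held 11041, 12388, 11563, 14374 and 10745 CPM. In CD4 C269 they held 13218, 12654, 13139.5, 12872 and 11899.7 CPM, and in CD4 CTRL 12463, 13577, 14464, 14512 and 12539.5 CPM. In CD8 C269 they held 13862, 17357, 12621, 14854 and 11936 CPM, and in CD8 CTRL 12076, 11550.2, 13224, 13174 and 11591 CPM. Libraries 9 and 10 lay above the other 28, library 27 of CD8 C269 came next, and the ranges of C269 and CTRL overlapped in every population. The shares of the complexes in the sum had group means of 27.1% to 30.1% for complex I, 3.03% to 3.85% for complex II, 10.4% to 12.6% for complex III, 24.8% to 26.3% for complex IV and 30.3% to 32.4% for complex V. Some shares did not overlap between 4T1 CTRL and CD8 CTRL libraries. Complex I took 28.5% to 31.5% in 4T1 CTRL and 26.3% to 28.2% in CD8 CTRL, complex II 3.70% to 4.02% and 3.09% to 3.49%, and complex III 9.92% to 10.9% and 11.7% to 12.5%. In bulk libraries such as these, fewer cells of a type and less RNA per cell cannot be told apart.

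**Figure D2:**
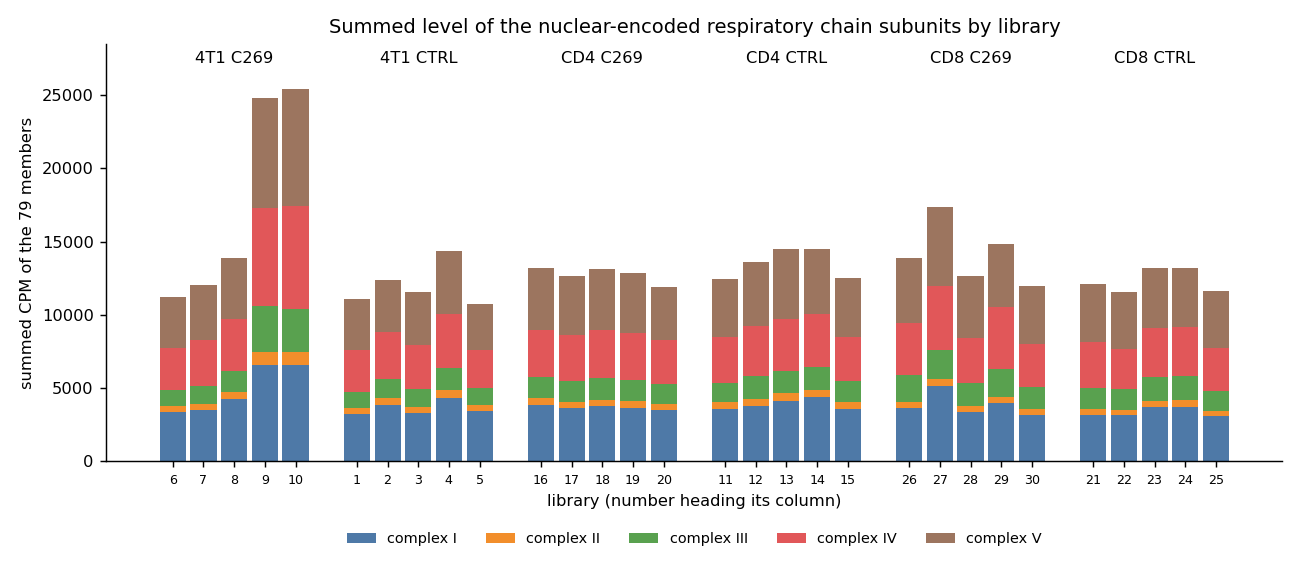
Summed CPM of the 79 members in each of the 30 libraries, stacked by complex, with groups set apart along the horizontal axis. Libraries 9 and 10 of 4T1 C269 reach 24810.4 and 25398 CPM, and the remaining libraries lie between 10745 and 17357 CPM.

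The first question the design puts is whether the antibody changed these genes in the tumour cells. In 4T1 C269 against 4T1 CTRL, 73 of the 79 members had a positive log2 fold change, with a median of 0.53, against 0.023 over all 12875 genes tested, and none passed an adjusted p of 0.05. The share of all genes called was also 0%. In edgeR's quasi-likelihood test 26 members had an unadjusted p under 0.05, as did 1536 of all genes. DESeq2 called 3 members higher, Ndufa3, Ndufs8 and Cox7a1. It was 4T1 C269 itself that brought Cox7a1 over the 5 CPM limit, with its highest group mean of 14.3 CPM. The call of Cox7a1 is therefore not separate from its selection. Libraries 9 and 10 lay above all 8 other 4T1 libraries for 63 of the 79 members. The same count was not made over all genes, so it is not shown to be particular to the members. Those 63 were 27 of 35 in complex I, 3 of 4 in complex II, 8 of 8 in complex III, 11 of 15 in complex IV and 14 of 17 in complex V. Without the pair, 57 members still had a positive value, with a smaller median of 0.12, against 0.0013 over all genes. At an unadjusted p under 0.05 there were then 3 members, and neither tool called any. The log2 ratio of mean summed CPM was 0.54 with all libraries and 0.040 without the pair. What the intestinal and Y-linked RNA of those libraries contributed to the members' values was not tested.

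Sdha, the flavoprotein of complex II that oxidises succinate, shows the shape shared by most members. It had 92.3, 96.9, 119, 298 and 334 CPM in 4T1 C269, against 97.9, 97.1, 120.1, 102 and 132 CPM in 4T1 CTRL. Only libraries 9 and 10 lay above the CTRL range, and the fold change of 0.77 ± 0.38 (SE, adjusted p = 0.443) became -0.037 without them. Cox6a1, a small membrane subunit of complex IV whose promoter is shown above, had 273, 310.1, 365, 1031 and 994 CPM in 4T1 C269, against 258, 257, 268, 360.0 and 254 CPM in 4T1 CTRL. The separation again came from the same libraries, and its log2 fold change was 1.09 with them and 0.25 without. Atp5g1, a minor gene for subunit c, had 13.3, 20.7, 18.4, 111 and 96.4 CPM in 4T1 C269, against 18.4, 17.5, 24.4, 18.1 and 21.8 CPM in 4T1 CTRL. Its log2 fold change of 1.35 became -0.14. Cox7a1, the muscle isoform of a complex IV subunit, had 3.84, 2.87, 8.33, 23.3 and 33.0 CPM in 4T1 C269 and 4.70, 2.98, 4.03, 2.76 and 1.04 CPM in 4T1 CTRL, with the highest values again in libraries 9 and 10, and its log2 fold change of 2.16 became 0.68 without them.

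The core subunits that carry the reactions varied in how far their values moved without libraries 9 and 10. In complex I, Ndufs1, the largest iron-sulphur subunit, gave 0.77 on the log2 scale over all libraries and 0.0072 once libraries 9 and 10 were dropped. Ndufv1, the NADH-binding subunit, gave 0.89 and 0.34. In complex II, the iron-sulphur subunit Sdhb gave 0.35 and 0.26, and the membrane anchors gave 0.17 and -0.26 for Sdhc and 0.66 and 0.053 for Sdhd. In complex III, the core protein Uqcrc1 gave 0.37 and -0.15, and the Rieske protein Uqcrfs1 gave 0.58 and 0.10. In ATP synthase, Atp5a1 gave 0.78 and 0.089, and Atp5b gave 0.31 and 0.12. For these 9 core and anchor genes adjusted p with all libraries lay between 0.361 and 0.841, so none passed.

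For a few subunits the other C269 libraries lay above CTRL as well. Ndufa3, a small membrane-arm subunit of complex I, had 128, 125, 166, 290.1 and 334 CPM in 4T1 C269, against 103, 119, 82.2, 119 and 73.1 CPM in 4T1 CTRL. Ndufs8, a core subunit that carries iron-sulphur clusters, had 58.2, 73.2, 78.6, 105 and 102 CPM in 4T1 C269, against 45.1, 25.1, 48.6, 57.2 and 19.7 CPM in 4T1 CTRL. For both, every C269 library lay above every CTRL library. The log2 fold change of Ndufa3 was 1.08 ± 0.30 (SE, adjusted p = 0.355) and that of Ndufs8 was 1.09 ± 0.31 (SE, adjusted p = 0.355), and without libraries 9 and 10 they were 0.57 and 0.89. Uqcrc2, a core protein of complex III, did not overlap either, with 118, 153, 142, 372 and 364 CPM in 4T1 C269, against 117, 98.8, 115, 107 and 98.7 CPM in 4T1 CTRL. Its change of 1.10 ± 0.34 (SE, adjusted p = 0.355) became 0.43 without the pair. Ndufa12, an accessory subunit of complex I, gave 1.31 ± 0.41 (SE, adjusted p = 0.355), with an overlap between the groups, and 0.50 without the pair.

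Of the 6 members with negative values, Ndufb9, an accessory subunit of the complex I membrane arm, had the smallest p. It had 268, 244, 369.8, 255 and 238 CPM in 4T1 C269, against 293, 480.0, 351, 516 and 361 CPM in 4T1 CTRL, and libraries 9 and 10 were not high for it. Its fold change was -0.52 ± 0.21 (SE, adjusted p = 0.369), and -0.36 without the pair. Atp5md and Atp5l, small subunits of the ATP synthase membrane part, gave -0.056 ± 0.31 (SE, adjusted p = 0.959) and -0.094 ± 0.32 (SE, adjusted p = 0.933), and 0.12 and -0.11 without the pair. Ndufa4l2 gave -2.22 ± 1.51 (SE, adjusted p = 0.578), which was 0.51 without CTRL library 5, and it had no counts in libraries 9 and 10. Its highest group mean, 21.5 CPM, was that of 4T1 CTRL. The negative value of Ndufa4l2 is therefore not separate from its selection by the 5 CPM limit.

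**Figure D3:**
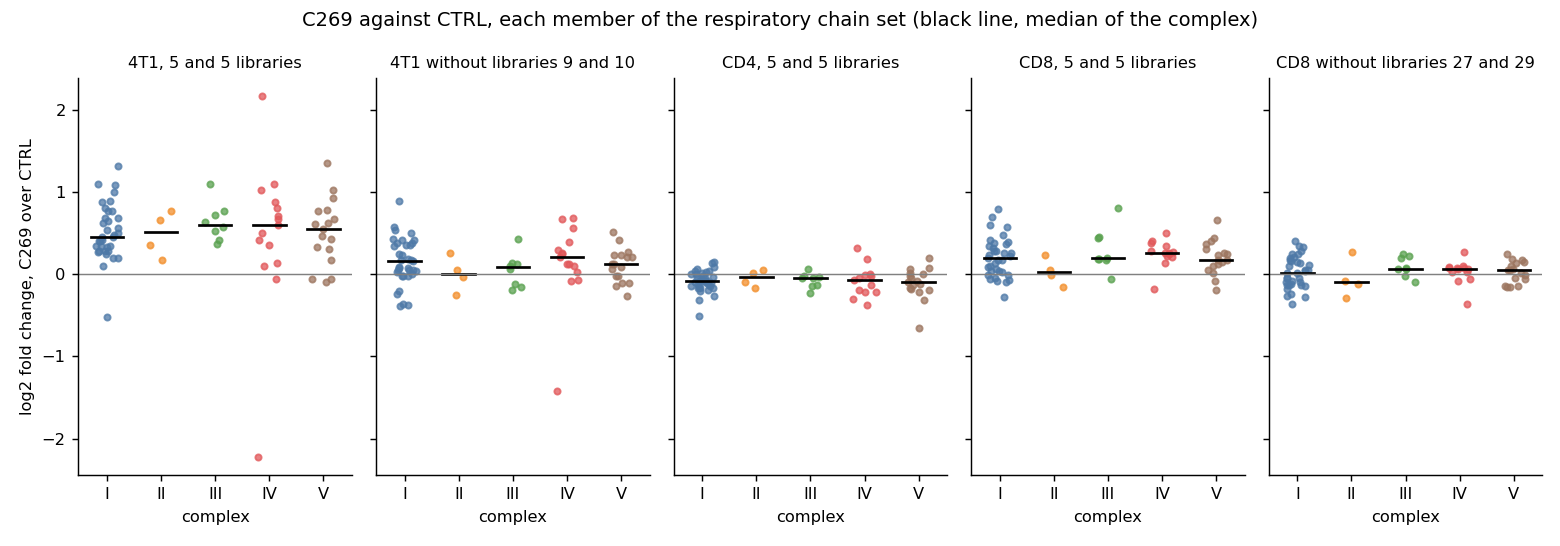
Log2 fold change of C269 over CTRL for each tested member (points) by complex, with the median of each complex as a black line, in the 4T1, CD4 and CD8 populations. With all libraries most 4T1 points lie above 0 with a median over members of 0.53, and no member passed the test in any population.

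In CD4+ T cells no member passed either. Of 77 tested in CD4 C269 against CD4 CTRL, 57 had a negative and 20 a positive value, with a median of -0.081, against 0.0047 over all 12393 genes. By edgeR's quasi-likelihood test 0 members passed, 5 had an unadjusted p under 0.05, and DESeq2 called 0. The share of all genes called was 0%, with 697 at an unadjusted p under 0.05. The smallest p was that of Ndufb3, an accessory subunit of complex I, with 107, 73.6, 82.5, 70.8 and 71.4 CPM in CD4 C269, against 126, 115, 135, 114 and 80.2 CPM in CD4 CTRL. The groups overlapped and the log2 fold change was -0.51 ± 0.18 (SE, adjusted p = 0.776). Atp5g1 gave -0.66 ± 0.25 (SE, adjusted p = 0.865). Cox7c and Cox8a, small subunits of complex IV, gave -0.37 ± 0.16 (SE, adjusted p = 0.882) and -0.30 ± 0.13 (SE, adjusted p = 0.882). Among positive values the smallest p was that of Ndufa4, at 0.31 ± 0.16 (SE, adjusted p = 0.883), followed by Atp5pb of the ATP synthase stalk at 0.19 ± 0.12 (SE, adjusted p = 0.902), Cox5a at 0.18 ± 0.12 (SE, adjusted p = 0.907) and Ndufs1 at 0.13 ± 0.16 (SE, adjusted p = 0.939). All 8 epithelial and tumour markers had counts in each CD4 C269 library and summed to 307 to 808 CPM there, against 214 to 341 CPM in CD4 CTRL, and their part was not tested.

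In CD8+ T cells most members had small positive values under C269, and again none passed. Of 77 tested in CD8 C269 against CD8 CTRL, 63 had a positive value, with a median of 0.22, against 0.0097 over all 10943 genes. By edgeR's quasi-likelihood test 0 passed an adjusted p of 0.05, against 0.00914% of all genes, and DESeq2 called 0. At an unadjusted p under 0.05 there were 9 members, a count with no share of all genes beside it. Libraries 27 and 29 of CD8 C269 lay above the other 8 CD8 libraries for 25 of the 79 members. Among them were 5 of 8 in complex III and 9 of 15 in complex IV, and the same count was not made over all genes. All 8 epithelial and tumour markers had counts in libraries 27 and 29, with sums of 552 and 265 CPM. They summed to 48.0 to 108 CPM in the other CD8 C269 libraries and 35.9 to 111 CPM in CD8 CTRL. The fibroblast, neutrophil and erythroid markers summed to 7661, 1970 and 2969 CPM in library 29, the highest of the 10 CD8 libraries. Libraries 27 and 29 also had the fewest counts, 2005579 and 2024270, the fewest genes detected, 12208 and 13400, and the highest share of ribosomal RNA, 7.95% and 7.24%, of these libraries. The part of all of these in the members' values was not tested. Without both libraries 46 of 77 values were positive and the median was 0.046.

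Ndufc2, an accessory subunit of complex I, had the smallest p in CD8 cells. It had 118, 160.1, 103, 248 and 97.7 CPM in CD8 C269, against 80.1, 90.8, 76.1, 95.4 and 81.5 CPM in CD8 CTRL. Every C269 library lay above every CTRL library, the highest being library 29, and the log2 fold change was 0.79 ± 0.25 (SE, adjusted p = 0.739). Without libraries 27 and 29 it was 0.32 ± 0.16 (SE, adjusted p = 0.969). Uqcrb, a small subunit of complex III, had 71.0, 154, 92.4, 192 and 64.9 CPM in CD8 C269, against 65.5, 68.2, 73.4, 73.9 and 51.1 CPM in CD8 CTRL, overlapping, with 0.80 ± 0.28 (SE, adjusted p = 0.739). Uqcrfs1 gave 0.46 ± 0.18 (SE, adjusted p = 0.739), and Ndufb6 of complex I gave 0.69 ± 0.27 (SE, adjusted p = 0.739). Without libraries 27 and 29 the log2 fold changes were 0.20 for Uqcrb, 0.24 for Uqcrfs1 and 0.34 for Ndufb6. On the negative side Ndufa10 gave -0.28 ± 0.16 (SE, adjusted p = 0.792), Atp5h of the ATP synthase stalk -0.19 ± 0.16 (SE, adjusted p = 0.86), Cox7a2l -0.18 ± 0.16 (SE, adjusted p = 0.87) and Sdhd -0.16 ± 0.20 (SE, adjusted p = 0.904), of which Cox7a2l gave -0.081 and Sdhd -0.29 without those libraries.

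The C269 effect itself was compared between populations in a fit of all 30 libraries, and no member passed. For CD8 against CD4, 68 of 79 differences were positive, with a median of 0.21, 5 at an unadjusted p under 0.05, and 0% of all genes called by edgeR. For 4T1 against CD4 the median was 0.71, with 45 at an unadjusted p under 0.05 and 0.00679% of all genes called. For 4T1 against CD8 the median was 0.35, with 25 at an unadjusted p under 0.05 and 0.00679% of all genes called. These shares of all genes are at an adjusted p under 0.05, so the counts at an unadjusted p cannot be set against them. At the adjusted threshold edgeR called 0 members in each of the 3. DESeq2 called 0, 1 and 2 members, Ndufa3 in both 4T1 comparisons and Cox7a2l against CD8, without a share of all genes to set them against. Without libraries 9 and 10 the medians were 0.28 for 4T1 against CD4 and -0.014 for 4T1 against CD8, and DESeq2 called none. Ndufa3 gave 1.17 ± 0.28 (SE, adjusted p = 0.21) against CD4 and 1.10 ± 0.28 (SE, adjusted p = 0.0852) against CD8, the smallest adjusted p of any member in these differences. Uqcrc2, Atp5j2 and Atp5o, parts of complex III and of ATP synthase, gave 1.09 ± 0.33 (SE, adjusted p = 0.296), 1.07 ± 0.29 (SE, adjusted p = 0.218) and 1.28 ± 0.35 (SE, adjusted p = 0.242) for 4T1 against CD4. For 4T1 against CD8, Cox7a2l gave 0.84 ± 0.25 (SE, adjusted p = 0.105), Ndufb10 1.17 ± 0.37 (SE, adjusted p = 0.127), Atp5h 0.86 ± 0.27 (SE, adjusted p = 0.125) and Ndufb9 -0.85 ± 0.32 (SE, adjusted p = 0.181). Without libraries 9 and 10, Ndufa3 gave 0.63 against CD4 and 0.56 against CD8, and Uqcrc2, Atp5j2 and Atp5o gave 0.40, 0.53 and 0.45 against CD4. Against CD8 the values were then 0.80 for Cox7a2l, 0.56 for Ndufb10, 0.75 for Atp5h and -0.72 for Ndufb9. For CD8 against CD4, Ndufc2 gave 0.86 ± 0.36 (SE, adjusted p = 0.999994) and Ndufb6 0.74 ± 0.34 (SE, adjusted p = 0.999994).

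The second question is how the populations differ in CTRL tumours. Between CD8 CTRL and CD4 CTRL most members did not pass the test, with a median log2 fold change of -0.052 over 78 tested, against -0.0047 over all genes. In edgeR's quasi-likelihood test 2 members were called higher in CD8, Uqcrh and Cox7a2l, and 3 lower, Ndufb9, Uqcrb and Cox6c. DESeq2 called these 5 and also Cox4i1, higher in CD8. Of all 13201 genes tested, 12.6% were called, 3.47% higher and 9.09% lower. The members' share, 5 of 78, was below that background. The summed level was 12323 ± 826 CPM in CD8 CTRL and 13511 ± 995 CPM in CD4 CTRL (SD, n = 5 each). The 8 epithelial and tumour markers summed to 35.9 to 111 CPM in CD8 CTRL and 214 to 341 CPM in CD4 CTRL. The fibroblast markers summed to 331 to 899 and 611 to 6089 CPM in the same groups. Neutrophil markers summed to 257 to 503 CPM in CD8 CTRL and 568 to 869 CPM in CD4 CTRL. Macrophage markers summed to 696 to 1557 CPM in CD8 CTRL and 809 to 3293 CPM in CD4 CTRL. Library 14 of CD4 CTRL held that highest macrophage sum and the lowest T cell marker sum of its group, 889 CPM. The part of any of these in the members' values was not tested.

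Ndufb9 differed most. It had 166, 121, 194, 147 and 155 CPM in CD8 CTRL, against 337, 321, 422, 558 and 302 CPM in CD4 CTRL. No CD8 library reached the CD4 range, and the log2 fold change was -1.22 ± 0.18 (SE, adjusted p = 0.000212). The call held in all 19 alternative settings tried. Uqcrb had 65.5, 68.2, 73.4, 73.9 and 51.1 CPM in CD8 CTRL, against 98.3, 97.9, 93.4, 116 and 97.7 CPM in CD4 CTRL, also without overlap, with -0.52 ± 0.15 (SE, adjusted p = 0.0251). Cox6c, a small nuclear subunit of complex IV, had 361, 286, 398, 379 and 377 CPM in CD8 CTRL, against 536, 495, 562, 656 and 447 CPM in CD4 CTRL, with -0.50 ± 0.15 (SE, adjusted p = 0.0377). The groups did not overlap for Cox6c either, but its call held in 8 of 19 settings, and that of Uqcrb in 13.

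Higher in CD8 CTRL was Uqcrh, which links cytochrome c1 to cytochrome c in complex III. It had 546, 513, 647, 625 and 508 CPM in CD8 CTRL, against 381, 498, 442, 457 and 448 CPM in CD4 CTRL, without overlap, and gave 0.43 ± 0.13 (SE, adjusted p = 0.0359). Cox7a2l had 188, 173, 197, 181 and 188 CPM in CD8 CTRL, against 132, 142, 136, 103 and 137 CPM in CD4 CTRL, also without overlap, and gave 0.59 ± 0.18 (SE, adjusted p = 0.0352). Both calls sat close to the threshold, holding in 10 and 9 of 19 settings. Cox4i1, a large nuclear subunit of complex IV, did not overlap between the groups, but its 0.39 ± 0.13 (SE, adjusted p = 0.0618) did not pass in edgeR, while DESeq2 gave 0.41 ± 0.12 (SE, adjusted p = 0.00871). Atp5pb, at 0.33 ± 0.15 (SE, adjusted p = 0.186), and Ndufc2, at -0.46 ± 0.16 (SE, adjusted p = 0.0624), did not pass either.

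**Figure D4:**
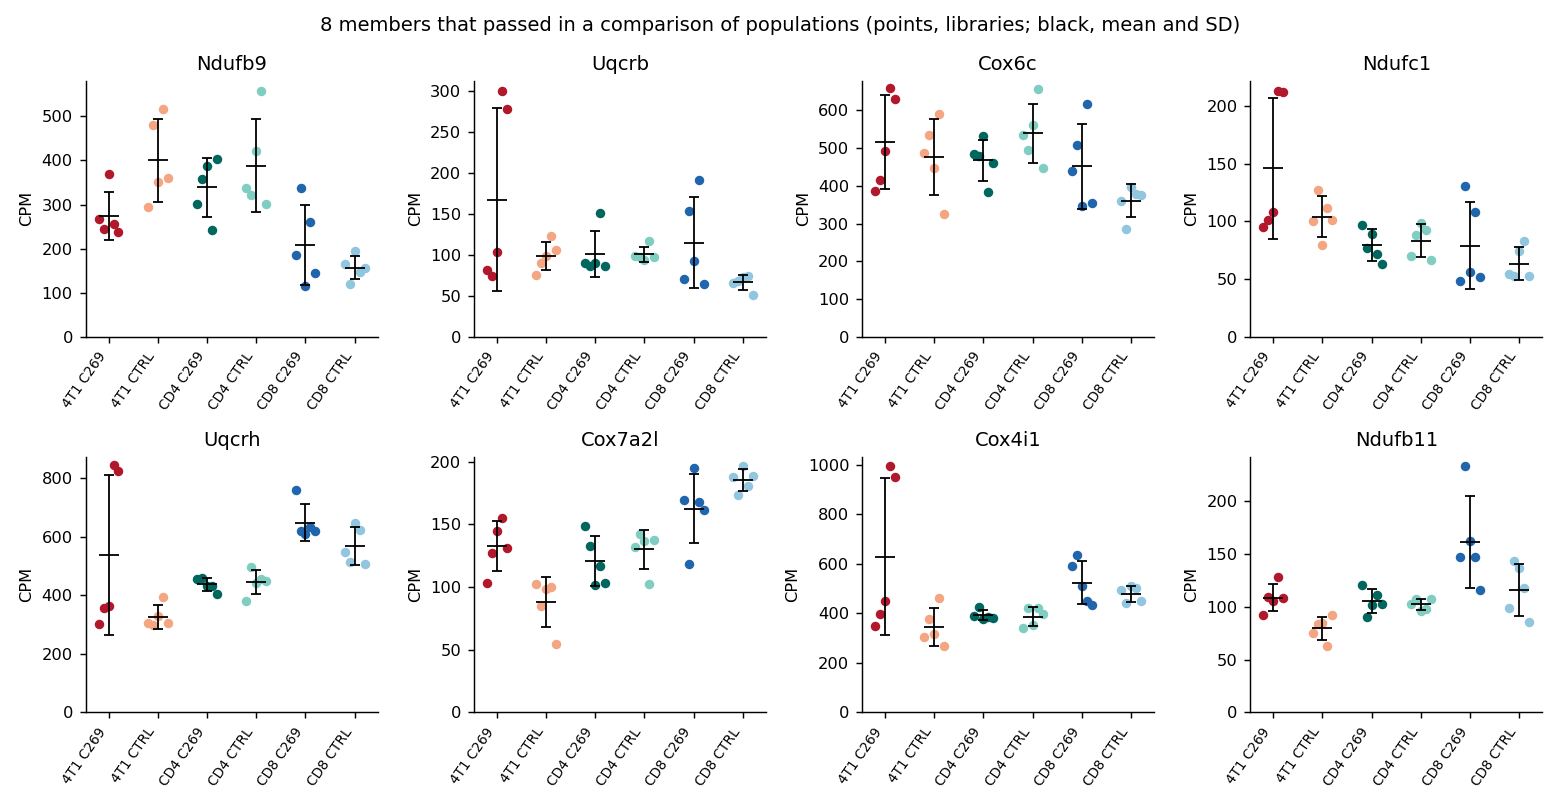
CPM of 8 members that passed in a comparison of populations, with a point for each library and the mean and SD in black, by group. Ndufb9 has its lowest group mean in CD8 CTRL, where it lies at 121 to 194 CPM, and Uqcrh in the CD8 groups lies at 508 to 761 CPM.

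The same comparison within C269 libraries gave 3 members higher and 0 lower in CD8 C269 against CD4 C269, of 77 tested, where 7.66% of all 11797 genes were called, 3.52% higher and 4.15% lower. They were Uqcrh, Ndufb11 and Cox4i1, and DESeq2 called 4, the same 3 and Ndufb5. Uqcrh had 761, 619, 611, 632 and 619 CPM in CD8 C269, against 455, 459.6, 432, 433 and 405 CPM in CD4 C269. The groups did not overlap and gave 0.66 ± 0.14 (SE, adjusted p = 0.00861), a call that held in all 14 settings. Cox4i1 had 592, 635, 510.3, 449 and 434 CPM in CD8 C269, against 388, 427, 376, 386 and 383 CPM in CD4 C269, without overlap, and gave 0.51 ± 0.15 (SE, adjusted p = 0.0482). Ndufb11, an X-linked accessory subunit of complex I, had 147, 233, 162, 147 and 116 CPM in CD8 C269, against 120.2, 90.3, 101, 111 and 103 CPM in CD4 C269, with an overlap of 1 library, and gave 0.70 ± 0.19 (SE, adjusted p = 0.0342). Without libraries 27 and 29, Uqcrh gave 0.67 ± 0.15 (SE, adjusted p = 0.00816), Cox4i1 0.46 ± 0.15 (SE, adjusted p = 0.0567) and Ndufb11 0.50 ± 0.17 (SE, adjusted p = 0.0632). Cox7a2l then passed, at 0.61 ± 0.17 (SE, adjusted p = 0.0339), against 0.52 ± 0.18 (SE, adjusted p = 0.106) with all libraries. Among members that did not pass, Uqcrfs1 gave 0.52 ± 0.17 (SE, adjusted p = 0.0771) and Ndufs4, an accessory subunit of complex I, -0.32 ± 0.20 (SE, adjusted p = 0.402). Ndufa5 gave -0.35 ± 0.23 (SE, adjusted p = 0.44) and Sdhb -0.18 ± 0.16 (SE, adjusted p = 0.616).

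These treatments use separate libraries, so they can be set side by side. Of 77 members tested in both, 39 had the same direction, and Uqcrh was the member called in both with all libraries. Without libraries 27 and 29, Cox7a2l and Ndufb9 were called in both as well. Of the 5 called in CTRL, 3 kept their direction in C269. Ndufb9 had 186, 337, 114, 261 and 144 CPM in CD8 C269, against 301, 359, 389, 241 and 404 CPM in CD4 C269. The overlap lay in libraries 27 and 29, which held 337 and 261 CPM, and the fold change was -0.62 ± 0.27 (SE, adjusted p = 0.194). Without those libraries it was -1.13 ± 0.23 (SE, adjusted p = 0.00566), a call. The median over the 77 was 0.24 with all libraries and 0.048 without libraries 27 and 29. The difference between treatments for Ndufb9 was 0.59 ± 0.32 (SE, adjusted p = 0.999994) and that for Uqcrh was 0.22 ± 0.29 (SE, adjusted p = 0.999994), so neither member was shown to differ between them.

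**Figure D5:**
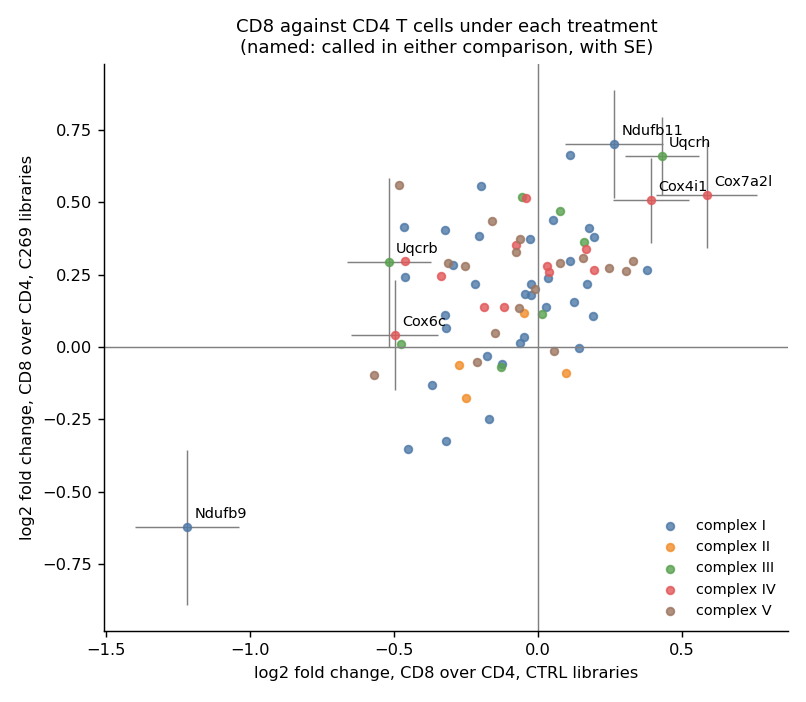
Log2 fold change of CD8 over CD4 for each of the 77 members tested under both treatments, CTRL libraries on the horizontal and C269 libraries on the vertical axis, with members called in either comparison named. Uqcrh lies at 0.43 and 0.66, and Ndufb9 at -1.22 and -0.62.

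Between 4T1 CTRL and CD8 CTRL, 7 members were called higher and 5 lower in 4T1, of 78 tested, with a median of 0.0022. This was a broad contrast in which 40.6% of all genes were called, 22.7% higher and 17.9% lower, and the members' 12 of 78 was a smaller share than that. Ndufb9 had 293, 480.0, 351, 516 and 361 CPM in 4T1 CTRL, against 166, 121, 194, 147 and 155 CPM in CD8 CTRL, without overlap, and gave 1.35 ± 0.18 (SE, adjusted p = 2.3e-05). Also higher in 4T1 CTRL were the complex I accessory subunits Ndufc1, at 0.73 ± 0.17 (SE, adjusted p = 0.00265), and Ndufc2, at 0.60 ± 0.16 (SE, adjusted p = 0.00557). Of complex III, Uqcrb gave 0.58 ± 0.15 (SE, adjusted p = 0.00421) and Uqcr11 gave 0.64 ± 0.19 (SE, adjusted p = 0.0135). Sdhc, a membrane anchor of complex II, gave 0.44 ± 0.16 (SE, adjusted p = 0.0347), and Cox6c gave 0.41 ± 0.15 (SE, adjusted p = 0.037). Of 19 settings, the call of Cox6c held in 6 and that of Sdhc in 9. Those of Ndufb9 and Ndufc1 held in 19, those of Ndufc2 and Uqcrb in 18 and that of Uqcr11 in 17. DESeq2 called the same 12 members and also Ndufab1, the acyl carrier protein, higher and Atp5a1 and Atp5d of ATP synthase lower. Among the 7, library values did not overlap for Ndufb9 and Uqcrb and overlapped for the other 5. Overlap was not counted over all genes, so its absence is not shown to be particular to these members.

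Lower in 4T1 CTRL were Uqcrh, Cox7a2l, Cox4i1, Ndufb11 and Ndufa6. Uqcrh had 306, 298, 329, 396 and 305 CPM in 4T1 CTRL, against 546, 513, 647, 625 and 508 CPM in CD8 CTRL, and gave -0.78 ± 0.13 (SE, adjusted p = 0.000177). Cox7a2l had 103, 84.8, 98.8, 99.8 and 54.7 CPM in 4T1 CTRL, against 188, 173, 197, 181 and 188 CPM in CD8 CTRL, and gave -1.05 ± 0.18 (SE, adjusted p = 0.000195). Neither overlapped, and both were called in all 19 settings. Cox4i1 gave -0.47 ± 0.13 (SE, adjusted p = 0.00884), Ndufb11 -0.52 ± 0.17 (SE, adjusted p = 0.0225) and Ndufa6, an accessory subunit of complex I, -0.48 ± 0.18 (SE, adjusted p = 0.0421), each with an overlap of libraries. Their calls held in 18, 16 and 13 of 19 settings.

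Between 4T1 CTRL and CD4 CTRL no member passed. In edgeR's quasi-likelihood test 6 of 78 had an unadjusted p under 0.05, and DESeq2 called 0. At an adjusted p under 0.05 edgeR called 0 of the 78 members and 12.7% of all genes, 7.01% higher and 5.71% lower in 4T1. Uqcrh gave -0.35 ± 0.13 (SE, adjusted p = 0.087) and Cox7a2l -0.46 ± 0.18 (SE, adjusted p = 0.0945), and Ndufc1 had the smallest p among positive values, at 0.41 ± 0.17 (SE, adjusted p = 0.123). Sdhd gave 0.35 ± 0.16 (SE, adjusted p = 0.173), Ndufa4 0.24 ± 0.17 (SE, adjusted p = 0.387) and Atp5pb 0.20 ± 0.15 (SE, adjusted p = 0.419). On the negative side Atp5g3 gave -0.36 ± 0.14 (SE, adjusted p = 0.11) and Ndufa3 -0.32 ± 0.14 (SE, adjusted p = 0.152). The 3 CTRL comparisons share libraries, since each group enters 2 of them. In order of the group means, Ndufb9 was at 400.2 ± 93.9 CPM in the 4T1, 388 ± 106 CPM in the CD4 and 157 ± 26.6 CPM in the CD8 libraries of CTRL (SD, n = 5 each), and the 4T1 and CD4 levels did not differ beyond their spread. Uqcrh was at 568 ± 64.4 CPM in the CD8, 445 ± 42.1 CPM in the CD4 and 327 ± 40.2 CPM in the 4T1 libraries (SD, n = 5 each).

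Ndufb9 lies at chr15:58933756-58939488 on the plus strand (GRCm38), between Tatdn1, which ends at 58933738, and Mtss1, which starts at 58941234. The neighbouring genes were examined after the values of Ndufb9 were seen. Tatdn1 gave -1.12 (adjusted p = 0.0068) in CD8 CTRL against CD4 CTRL and -1.13 (adjusted p = 0.0388) in CD8 C269 against CD4 C269. Mtss1 gave -1.38 (adjusted p = 0.00024) and -1.41 (adjusted p = 0.00467) in the same comparisons, and Trib1, a pseudokinase gene within 1 Mb, gave -1.78 (adjusted p = 0.000143) and -1.42 (adjusted p = 0.00154). Within 3 Mb on either side, 26 neighbours were tested in CTRL, of which 7 were called lower and 1, Fbxo32, higher in CD8, against 9.09% lower and 3.47% higher of all genes, with a median of -0.32, against -0.0047 over all genes. In C269, 4 of 23 neighbours tested were lower and 1 higher, against 4.15% and 3.52% of all genes, with a median of -0.13, against -0.0022 over all genes. Within the exons of Ndufb9, 19.5% of bases are shared with Gm49356 on the same strand, so reads there may have gone to either gene or to none. Of the other members called between populations, the annotation gives other genes at least 95% identical over 200 bases or more to Uqcrb (3), Cox6c (2), Cox7a2l (1) and Ndufb11 (1), and none to Uqcrh and Cox4i1.

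Genes that build or feed the chain were read from 9 lists beside the members. In C269 against CTRL, edgeR called 0 of 270 list genes tested in 4T1, 0 of 267 in CD4 and 0 of 261 in CD8. Of all genes, edgeR called 0%, 0% and 0.00914% in the same comparisons. At an unadjusted p under 0.05 there were 37, 11 and 15 list genes, and DESeq2 called 11, 0 and 0. The shares of all genes are at an adjusted p, so the unadjusted counts cannot be set against them. Counts of all genes at an unadjusted p are given above for 4T1 and CD4. The list counts are not read as particular to the lists. In 4T1 cells the smallest p among assembly factors were those of Sco1, a copper chaperone of complex IV, at 1.87 ± 0.52 (SE, adjusted p = 0.355), and Ndufaf3, at 0.83 ± 0.26 (SE, adjusted p = 0.355), which were 0.92 and 0.81 without libraries 9 and 10. The citrate synthase gene Cs gave 0.91 ± 0.32 (SE, adjusted p = 0.355), and 0.40 without them. In 4T1 without the pair, edgeR called 0 of 274 list genes tested, with 13 at an unadjusted p under 0.05, and DESeq2 called 0. In CD8 CTRL against CD4 CTRL, edgeR called 3.47% of all genes higher and 9.09% lower. There 1 of 16 complex I assembly factors tested was called higher, Ndufaf4, at 0.64 ± 0.18 (SE, adjusted p = 0.0212). The call of Ndufaf4 was lost in 6 of 19 settings, among them without any of libraries 12, 13, 14 or 22, with a highest adjusted p of 0.112. Of 31 assembly factors of the other complexes edgeR called 0, with 5 at an unadjusted p under 0.05, and DESeq2 called 0. Coq10b, a coenzyme Q chaperone, was higher in CD8 under both treatments, at 1.21 ± 0.22 (SE, adjusted p = 0.00116) in CTRL and 1.20 ± 0.23 (SE, adjusted p = 0.00484) in C269. Of 13 citrate cycle genes edgeR called 0, with 4 at an unadjusted p under 0.05, and DESeq2 called 0. Of the 13 mitochondrially encoded subunits, 5 had at most 6 counts in any library. Of the 8 tested, edgeR called 0 in CTRL, with 2 at an unadjusted p under 0.05, and DESeq2 called 0. In C269, where edgeR called 3.52% of all genes higher and 4.15% lower, 2 of 7 were lower in CD8. These were mt-Nd4 at -1.05 ± 0.26 (SE, adjusted p = 0.0253) and mt-Cytb at -0.80 ± 0.20 (SE, adjusted p = 0.0247). Both calls were lost in 5 of 14 settings, without any of libraries 16, 17, 18, 26 and, for mt-Nd4, 29 or, for mt-Cytb, 30, with highest adjusted p of 0.0861 for mt-Nd4 and 0.091 for mt-Cytb. The median of the nuclear-encoded members in that comparison was 0.24, and the difference between the nuclear and mitochondrial genes was not tested.

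Other lists were read in the same comparisons between populations. In CD8 CTRL against CD4 CTRL, where 3.47% of all genes were higher and 9.09% lower, 22 of 78 cytosolic ribosomal protein genes were higher and 0 lower, with Rpl23a at 0.89 ± 0.12 (SE, adjusted p = 0.000102). Of 20 hypoxia and glycolysis genes 6 were lower and 1 higher, with Ndrg1, a hypoxia-induced gene, at -1.34 ± 0.21 (SE, adjusted p = 0.000406). In 4T1 CTRL against CD8 CTRL, where 22.7% of all genes were higher and 17.9% lower, 17 of those 20 were higher and 0 lower, with the lactate exporter Slc16a3 at 2.39 ± 0.24 (SE, adjusted p = 2.36e-06). In that comparison 4 of 8 mitochondrially encoded subunits were higher and 0 lower, among them mt-Co1 at 0.71 ± 0.19 (SE, adjusted p = 0.00554). Of 74 mitochondrial ribosomal proteins, 8 were higher and 5 lower there, a smaller share than the 40.6% of all genes called, and Mrpl13 gave 1.21 ± 0.15 (SE, adjusted p = 1e-05). Of 12 regulators of mitochondrial biogenesis, 0 were higher and 5 lower, with Tfb2m, a mitochondrial transcription factor, at -1.02 ± 0.25 (SE, adjusted p = 0.00353) and Yy1 at -0.68 ± 0.14 (SE, adjusted p = 0.000816).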

How the data were processed

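RNA-seq libraries from sorted 4T1 cells, CD4+ and CD8+ T cells (30 libraries, 5 per group) were analysed. The values used are whole-number counts per gene, deposited by the authors in 3 tables without normalization. Per the submitters' processing notes, reads were checked with FastQC, counted with featureCounts and compared with DESeq2. The sources used here do not give the aligner, versions or strand setting. The notes name mm9, but the starts of all 90 members equal those of GRCm38 (GENCODE M21). Column headers carry library numbers, and these were tied to groups through the deposited per-group sums.

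The members and lists were chosen with earlier results of these data known. CPM are counts per 1000000 counts assigned to genes, without 7 ribosomal RNA rows (3.05% of counts, 0.579% to 7.95% per library). Groups were compared with edgeR 4.0.16 in R 4.3.3 (filterByExpr, TMM, quasi-likelihood test), with Benjamini-Hochberg adjustment over all genes tested and a threshold of 0.05. Fits used the 10 libraries compared, the 15 CTRL libraries for populations under CTRL, and all 30 for differences of the C269 effect. Alternatives were DESeq2 1.42.0, RLE size factors, no filter, each library left out, and libraries 9 and 10 or 27 and 29 left out. Shares of all genes called are those of edgeR. Calls by DESeq2 are given without such a share and are not read as particular to the members or lists. Members were named by rule: up to 8 called per direction or, under 4 called, the smallest p up to 4, plus isoform sets, core subunits and the extremes of level. Most of those without a call are given in brief or left out, and the partner genes named are those with the smallest p, not all printed. The fits were tested on simulated data. At 2005579 to 5176494 counts per library, 5 CPM is about 10 to 26 counts, so genes near that level are imprecise. Near-identical genes were found with blastn 2.17.0.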

Additional observations from a re-analysis of the deposited data

Results flagged for a closer look

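Among 510 groups of 5 values examined, 27 (5.29%) held a library far from the other 4, where chance flags about 1 in 20 such groups. They are given as values, and no member's difference of the C269 effect between populations passed its test.

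In 4T1 C269, Ndufb9 in library 8 was high at 369.8 CPM. In 4T1 CTRL, library 4 was high for Uqcr10 (248 CPM), Uqcrc1 (187 CPM), Cox6a1 (360.0 CPM), Atp5d (270.4 CPM) and Atp5g3 (717 CPM), and library 3 was high for Atp5j (110.4 CPM). Library 5 was high for Ndufa4l2 (94.5 CPM) and low for Atp5e (267 CPM). In CD4 C269, library 16 was high for Ndufa5 (110.1 CPM), library 17 for Cox4i1 (427 CPM) and library 19 for Uqcrb (151 CPM) and Atp5a1 (545 CPM). In CD4 CTRL, library 14 was high for Ndufa12 (91.8 CPM) and Uqcrb (116 CPM) and low for Cox7a2l (103 CPM).

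In CD8 C269, library 27 was high for Ndufb6 (153 CPM), Cox7b (332 CPM), Atp5c1 (295 CPM), Atp5g3 (750.4 CPM), Atp5j (199 CPM) and the sum of complex II (488 CPM), and library 26 was high for Uqcrh (761 CPM). In CD8 CTRL, library 23 was high for Ndufa7 (155 CPM), Atp5h (176 CPM) and Ndufa4l2 (1.80 CPM, with 0 in the other 4), and library 22 was low for Uqcr11 (41.9 CPM). Libraries 4, 14, 23 and 27 therefore recur for several members.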

How the results depend on the processing

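Depth limits the low members, such as Atp5g2, Cox7a1 and Ndufa4l2, and the 4T1 libraries limit the tumour comparisons through their spread. No paired analysis was possible because the count columns carry no replicate labels that tie libraries across groups. Summed levels were taken as unchanged within their spread, and counts of called members when equal or close to the main count. So taken, 120 of 132 values were unchanged under the alternatives that keep all or drop several libraries, as were 391 of 420 with 1 library left out. Comparisons that had no call and stayed without one are among these. Where a result changed, the cause was not tested.

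Without libraries 9 and 10 the log2 ratio of summed CPM in 4T1 was 0.040. DESeq2 called 3 members higher in 4T1 C269 and, for differences of the C269 effect, 1 higher in 4T1 against CD4 and 2 in 4T1 against CD8. DESeq2 called 6 members in CD8 against CD4 under CTRL and 15 in 4T1 against CD8, where edgeR called 5 and 12. Without a filter on low counts, CD8 against CD4 under CTRL had 0 members higher and 1 lower, 4T1 against CD4 had 1 higher, and CD8 against CD4 under C269 had 1 higher. In a fit of all 30 libraries, CD8 against CD4 under CTRL had 1 higher and 1 lower, and 4T1 against CD8 had 3 higher. Without libraries 27 and 29, chosen after seeing the data, CD8 against CD4 under C269 had 2 higher and 1 lower, Cox7a2l and Ndufb9 gaining a call and Cox4i1 and Ndufb11 losing theirs.

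With 1 library left out at a time, the counts ranged from 0 to 3 higher and 1 to 4 lower in CD8 against CD4 under CTRL, 0 to 1 higher and 0 to 1 lower in 4T1 against CD4, and 5 to 9 higher and 3 to 7 lower in 4T1 against CD8. They ranged from 1 to 3 higher and 0 to 1 lower in CD8 against CD4 under C269, and from 0 to 1 higher for the difference between 4T1 and CD8. In CD8 against CD4 under CTRL, Uqcrh lost its call without any of libraries 11, 13, 14, 15, 21, 23 or 24, Cox7a2l without 11, 13, 14, 15 or any CD8 library, Uqcrb without 12, 14, 21 or 25, and Cox6c without 11 to 14 or any CD8 library. The highest adjusted p over all settings were 0.242, 0.106, 0.396 and 0.107 for these 4. Under C269, Cox4i1 and Ndufb11 lost theirs without any of 8 libraries, with highest adjusted p of 0.163 and 0.114.

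Directions turned as follows on the log2 scale. In 4T1, without libraries 9 and 10, Atp5g1 gave -0.14 (-0.17 in DESeq2), Atp5md 0.12 (0.10), Sdha -0.037 (-0.066) and Uqcrc1 -0.15 (-0.18), and Ndufs1 gave -0.023 in DESeq2. Libraries 1 and 3 of 4T1 CTRL were alike, with 25073 and 26840 CPM of erythroid markers, against 182 to 1499 CPM in the other 4T1 CTRL libraries. The labels do not say whether they, or libraries 9 and 10, are independent. When CTRL libraries 1 and 3 were left out too, a setting not planned beforehand, Atp5md gave 0.73, Ndufs1 -0.033 and Uqcrc1 -0.26. The difference between 4T1 and CD4 for Ppargc1b, a coactivator of mitochondrial genes, was -0.076 (-0.13 in DESeq2). Without libraries 27 and 29, Ndufb9 gave -0.085 and Tmem126b -0.57 in CD8 C269 against CTRL, and the differences between CD8 and CD4 were 0.021 for Cox7a2l and -0.060 for Timmdc1. With 1 library left out, 4T1 values ranged from -0.23 to 0.066 for Atp5l, -0.19 to 0.20 for Atp5md and -3.34 to 0.51 for Ndufa4l2. Differences between 4T1 and CD4 ranged from -0.31 to 0.18 for Atp5g2 and -3.04 to 0.72 for Ndufa4l2, and those between CD8 and CD4 from -0.15 to 0.029 for Cox7a2l and -0.076 to 0.89 for Timmdc1.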

Other observations

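The spread of the members differed between groups. The median coefficient of variation over the 79 members was 43.8% in 4T1 C269 and 22.1% in 4T1 CTRL, 12.4% in CD4 C269 and 13.4% in CD4 CTRL, and 24.98% in CD8 C269 and 14.9% in CD8 CTRL. The widest spreads, in 4T1 C269 and CD8 C269, were in the groups that hold libraries 9 and 10 and libraries 27 and 29. The 4T1 CTRL group, at 22.1%, holds none of these libraries. Their part in the spread was not tested.

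The mitochondrially encoded subunits of the same complexes had their own order. Of their 13 genes, mt-Atp6, mt-Atp8, mt-Co2, mt-Co3 and mt-Nd4l had at most 6 counts in any library although cells with mitochondria use them, so these 5 values are not read as expression and the sum rests on the other 8. The 13 genes summed to 22639.8 to 25632 CPM in CD8 C269, 23066 to 45874 CPM in CD4 C269 and 36059.5 to 103197 CPM in 4T1 C269. In CTRL libraries they summed to 23051 to 33409 CPM in CD8, 35577 to 43782 CPM in CD4 and 25733 to 70567 CPM in 4T1. Each CD8 CTRL library therefore lay below each CD4 CTRL library, while the summed nuclear-encoded members overlapped between those groups. In libraries 9 and 10 the sum was 82050.3 and 103197 CPM.

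Among the cytosolic ribosomal protein genes, 75 of 78 tested had a positive value in CD8 C269 against CD4 C269 and 71 of 78 in CD8 CTRL against CD4 CTRL. In C269, 29 of 78 were called higher and 0 lower in edgeR's quasi-likelihood test, where 3.52% of all genes were called higher and 4.15% lower, with 52 at an unadjusted p under 0.05, and DESeq2 called 35 higher and 0 lower. Rpl23a gave 0.93 ± 0.14 (SE, adjusted p = 0.00109) and Rps16 0.92 ± 0.16 (SE, adjusted p = 0.00264). Egln3, a hypoxia-induced prolyl hydroxylase, was lower in CD8 in both, at -2.12 ± 0.39 (SE, adjusted p = 0.00448) in C269 and -2.27 ± 0.29 (SE, adjusted p = 5.29e-05) in CTRL.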
